A study of Mus musculus with 8 samples.

Results

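Complement is a cascade of plasma proteins that tags microbes and damaged cells for uptake, calls in phagocytes and can pierce membranes. The classical pathway starts when C1q, a molecule built of A, B and C chains, binds to antibody on a surface, and the alternative pathway amplifies itself when C3 is cut and pairs with factor B. The liver makes most of the plasma pool, while monocytes, macrophages and neutrophils make some components locally. Described here are 8 complement genes that blood cells are known to transcribe, chosen by symbol out of the 21878 genes of the count table: the C1q chains C1qa, C1qb and C1qc, the C1 inhibitor gene Serping1, the central component C3, the alternative pathway genes Cfp (properdin) and Cfb (factor B), and C3ar1, the receptor of the C3a fragment. Of the 8 genes, 5 held enough reads to be tested, and C3 and Cfp rose in the stress group.

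RNA from whole peripheral blood was sequenced from 4 control and 4 stress samples, which the study treats as separate mice. All mice were wild-type (WT) C57BL/6 females of 6 to 8 weeks. Stress mice spent 6 hours restrained in a ventilated tube, and control littermates stayed in their cage; both groups had no food or water in that time, so fasting is shared by the groups and was not varied. Replicates carry only a number in the labels, and p-values measure the spread between these samples.

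Control libraries totalled 31471145 to 39014775 counts and stress libraries 25978683 to 29655725. Haemoglobin genes took 51.9% to 63.8% of the control counts and 61.2% to 75.5% of the stress counts. Levels are given as CPM, the count relative to a library size scaled by TMM, a factor that centres the typical gene. The TMM factor was 1.01 to 1.77 in the control and 0.507 to 1.10 in the stress libraries. On that scale the median log2 fold change of the 11718 tested genes (at least 10 counts in at least 4 samples) was -0.02, and on total counts alone it was -0.82. Counts from 1 to 20 in the table were even in 68.8% of cases, and a count of 2 occurred 5438 times against 1740 for a count of 1, so single counts are not independent molecules. In whole blood, fewer cells of a type and less RNA per cell cannot be told apart.

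C1q transcripts were scarce in both groups. The C1qa gene (GRCm38 chromosome 4, 136895917 to 136898803 in GENCODE M21) had 0, 2, 3 and 2 counts in control replicates 1 to 4 and 10, 0, 0 and 4 in stress replicates 1 to 4. C1qb (chromosome 4, 136880129 to 136886187) had 2, 2, 6 and 4 counts in the control samples and 11, 0, 4 and 10 in the stress samples. C1qc (chromosome 4, 136889804 to 136893065) had 0, 8, 5 and 0 counts in the control samples and 4, 4, 2 and 2 in the stress samples. These 3 neighbouring genes encode the chains of one molecule, and none of them reached the count filter. Their groups overlapped throughout, and stress replicate 1 alone held 25 of the C1q counts. Were counts independent, a count of 0 would allow up to 3 counts, or 0.139 CPM of C1qa in stress replicate 2 and 0.228 CPM in stress replicate 3 (counting error only), and with the mostly even counts the limit is higher. Fitted without the count filter, the log2 fold changes were 1.94 (standard error 1.23) for C1qa, 1.85 (0.99) for C1qb and 1.17 (1.12) for C1qc, with edgeR's adjusted p-values of 0.348, 0.263 and 0.558. A change of the C1q chains was therefore not detected, with large standard errors at these counts.

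Serping1 encodes the serpin that blocks the C1r and C1s proteases. The gene (chromosome 2, 84765387 to 84775444) was measured at 0.489, 0.271, 0.376 and 0.378 CPM in the control samples and at 0.713, 0.464, 0.911 and 0.448 CPM in the stress samples, from 10 to 26 counts per sample. The groups overlapped, with control replicate 1 above stress replicates 2 and 4. Its log2 fold change was 0.71 (standard error 0.42, 95% interval -0.19 to 1.6), and edgeR's quasi-likelihood test gave an adjusted p of 0.269. On total counts alone the sign turned (-0.12), a value above the median of all tested genes on that scale (-0.82).

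C3 is the protein on which all complement pathways meet, and its cleavage yields the anaphylatoxin C3a and the opsonin C3b. The gene (chromosome 17, 57203970 to 57228136, minus strand) was measured at 6.71, 6.07, 7.90 and 8.45 CPM in control replicates 1 to 4 and at 32.8, 11.6, 16.8 and 25.7 CPM in stress replicates 1 to 4. All 4 stress values exceeded all 4 control values, an order found for 11.1% of all tested genes. Stress replicates 1 and 4 were the highest and stress replicate 2 the lowest of the stress group. C3 thus rose, with means of 7.28 ± 1.09 CPM in the control and 21.7 ± 9.37 CPM in the stress samples (SD, n = 4 in each). The log2 fold change was 1.59 (standard error 0.26, 95% interval 1.01 to 2.16), and edgeR's quasi-likelihood test gave an adjusted p of 0.00299. In log2 fold change C3 ranked 73 among the 11718 tested genes.

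Properdin, the product of Cfp, is the stabilizer of the alternative pathway convertase and is made largely by myeloid cells rather than the liver. Cfp (chromosome X, 20925454 to 20931555, minus strand) was measured at 4.43, 4.72, 4.59 and 5.83 CPM in the control samples and at 11.4, 6.40, 12.2 and 13.2 CPM in the stress samples. Its groups did not overlap either, and stress replicate 2 was again the lowest stress sample, close to control replicate 4. Cfp rose as well, with means of 4.89 ± 0.64 CPM in the control and 10.8 ± 3.03 CPM in the stress samples (SD, n = 4 in each), and a log2 fold change of 1.15 (standard error 0.20, 95% interval 0.72 to 1.57). The adjusted p from edgeR's test was 0.00272.

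To be called, a gene had to change by more than 1 on the log2 scale in either direction, with edgeR's adjusted p under 0.01. By this rule 2 of the 8 genes, C3 and Cfp, were called up and 0 down, where 1.69% of all tested genes were called up and 0.0171% down. Without the fold change threshold it was again 2 of 8 higher and 0 lower, beside 4.60% and 0.324% of all tested genes. At an unadjusted p under 0.05, 3 of the 5 tested genes were higher and 0 lower, where 31.2% of all tested genes passed in either direction (2129 higher and 1524 lower). DESeq2 also called 2 of the 8 up and 0 down, beside 1.93% and 0.0753% of the genes it fitted. Scaled by total counts alone, C3 kept a log2 fold change of 0.86 (edgeR, adjusted p = 0.0304) and Cfp one of 0.40 (adjusted p = 0.309), both above the median of all genes on that scale, and neither was called. Each call also rested on single libraries: with edgeR, C3 was not called without control replicate 2 (adjusted p = 0.0105), stress replicate 3 (0.0231) or stress replicate 4 (0.0116), nor Cfp without control replicate 2 (0.0150), control replicate 3 (0.0107) or stress replicate 1 (0.0104). In these fits the log2 fold change stayed between 1.35 and 1.82 for C3 and between 1.03 and 1.36 for Cfp.

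**Figure D1:**
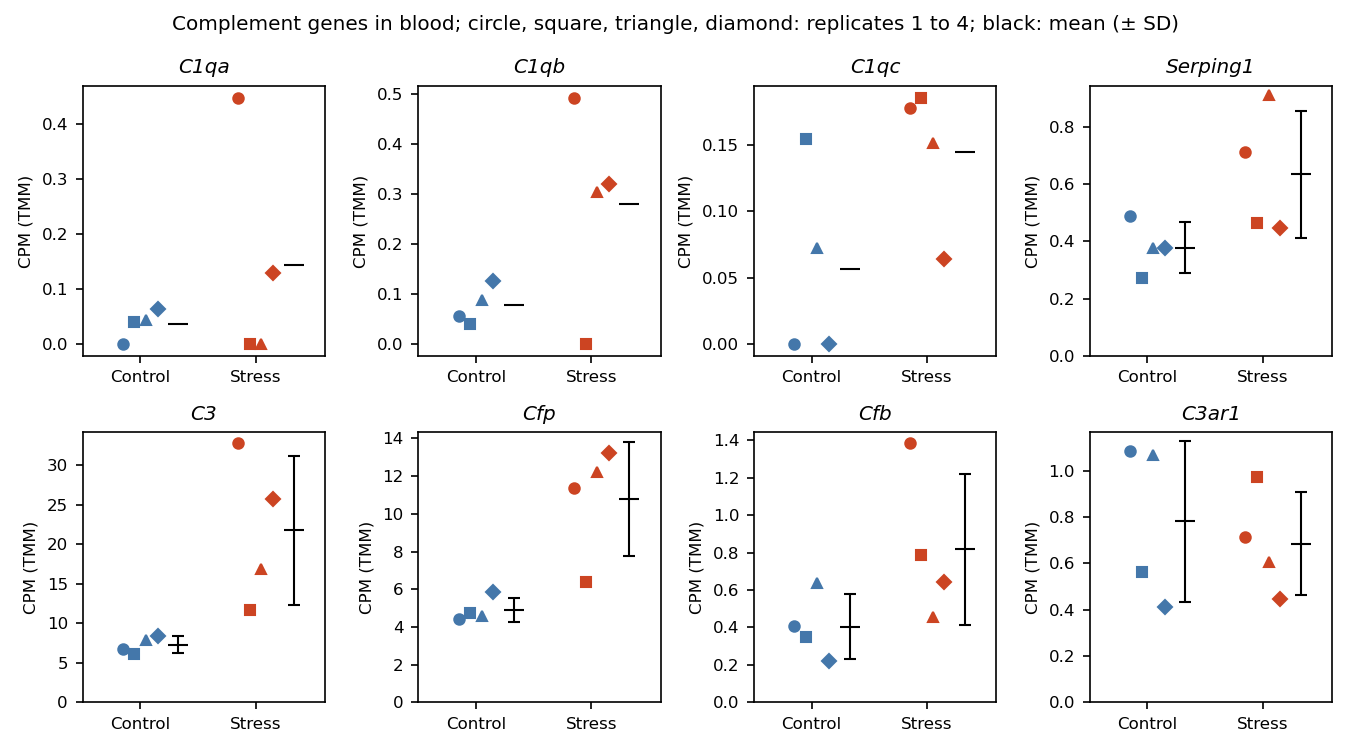
CPM on the TMM-scaled library size for each of the 8 complement genes, 1 point per sample, with the group mean in black (± SD drawn for the 5 tested genes only) and a vertical axis of its own for each gene. C3 and Cfp show 4 stress points above 4 control points, while the other genes overlap and the C1q chains stay under 0.5 CPM.

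C3 and Cfp were the 2 members called, so the bases before their starts are shown, from the RefSeq promoter table (GRCm38.p6), which holds 5 of the 8 genes. Each run covers the 250 bases before the start, 5′ to 3′ on the gene's own strand, C3 at chr17:57228137-57228386 and Cfp at chrX:20931556-20931805, both minus strand, and capitals mark a motif match.
C3: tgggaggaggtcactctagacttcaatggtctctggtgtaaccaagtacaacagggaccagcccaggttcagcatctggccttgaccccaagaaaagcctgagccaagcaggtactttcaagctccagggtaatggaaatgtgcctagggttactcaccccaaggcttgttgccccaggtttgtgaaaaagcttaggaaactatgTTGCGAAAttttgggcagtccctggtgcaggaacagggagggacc
Cfp: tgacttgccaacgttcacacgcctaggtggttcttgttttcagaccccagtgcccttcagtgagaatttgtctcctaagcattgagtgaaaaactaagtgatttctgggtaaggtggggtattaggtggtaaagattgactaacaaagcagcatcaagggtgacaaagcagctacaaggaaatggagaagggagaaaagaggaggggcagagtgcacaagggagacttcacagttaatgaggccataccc

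In these windows 6 motifs of factors known from myeloid cells, interferon and glucocorticoid responses were searched on both strands. The C3 window held 1 match, TTGCGAAA at 45 to 38 bases before the start, to the C/EBP core TTGCNNAA, letters that 9.56% of all 32851 promoter windows of this length hold. The Cfp window held 0 matches to any of the 6. The other motifs were NF-kappaB (in 0.98% of windows), PU.1 (GAGGAAG, 10.6%), ISRE (2.98%), GAS (TTCNNNGAA, 7.02%) and the glucocorticoid receptor palindrome (ACANNNTGT, 5.84%). A match here is a run of letters and was not tested as a binding site. With 0 matches in the Cfp window, none of the searched letters could be shared with C3.

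Factor B, the product of Cfb, supplies the protease of the alternative pathway convertase. Cfb (chromosome 17, 34856374 to 34862518) was measured at 0.407, 0.348, 0.636 and 0.221 CPM in the control samples and at 1.38, 0.788, 0.455 and 0.640 CPM in the stress samples, from 6 to 44 counts per sample. Stress replicate 1 was highest, and control replicate 3 lay above stress replicate 3. The log2 fold change was 0.99 (standard error 0.45, 95% interval 0.03 to 1.95) and the adjusted p of edgeR's test 0.148, so Cfb did not pass. In the annotation 79.5% of the exonic bases of Cfb are shared with the readthrough gene Gm20547 on the same strand. The symbol Gm20547 is absent from the 21878 counted genes, and how reads on the shared bases were counted was not tested.

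The receptor gene C3ar1, through which myeloid cells sense C3a, showed no detectable change. C3ar1 (chromosome 6, 122847138 to 122856161) was measured at 1.09, 0.561, 1.07 and 0.410 CPM in the control samples and at 0.713, 0.974, 0.607 and 0.448 CPM in the stress samples. Control replicate 1 was the highest and control replicate 4 the lowest of all 8 samples, so the stress samples lay inside the control range. The log2 fold change was -0.21 (standard error 0.42, 95% interval -1.11 to 0.68) with an adjusted p of 0.769 in edgeR's test, an interval that leaves room for changes in either direction.

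Per kilobase of merged exons, the order of mean levels in the control group was Cfp (2.82 CPM per kb), C3 (1.42), C3ar1 (0.182), Serping1 (0.163), Cfb (0.143), C1qb (0.0703), C1qa (0.0349) and C1qc (0.0294). The lowest control sample of Cfp (2.55) lay above the highest of C3 (1.64), and the lowest of C3 (1.18) above the highest of C3ar1 (0.252). From C3ar1 down, neighbours in the order overlapped. In the stress group Cfp (6.22 CPM per kb) and C3 (4.23) again led, and their ranges over libraries overlapped, from 3.69 to 7.61 and from 2.26 to 6.37. Within each library Cfp lay above C3 per kb, in 4 of 4 control samples (1.72 to 2.30 times) and 4 of 4 stress samples (1.03 to 2.15 times). C3 took 49.8% to 54.6% of the counts of the 8 genes in the control samples and 53.5% to 68.2% in the stress samples.

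Ratios of 2 genes within a library do not depend on how libraries are scaled, and 6 such ratios were compared by a two-sided exact permutation test over 70 assignments, whose smallest p is 0.0286. The log2 ratio of C3 to C3ar1 counts was 3.30 ± 0.75 in the control samples (SD, n = 4) and 4.88 ± 1.00 in the stress samples (SD, n = 4), a difference of 1.58 (exact p = 0.0571, adjusted over the 6 ratios 0.343). C3 to Cfp differed by 0.38 (exact p = 0.143, adjusted 0.429) and C3 to Cfb by 0.48 (exact p = 0.371, adjusted 0.743). At an unadjusted p under 0.05, 0 of the 6 ratios differed. A single differing ratio could not go below 0.171 after adjustment, so the adjusted values cannot show one. The ratios among the C1q chains (exact p-values of 0.857, 0.657 and 0.571) rest on at most 11 counts per gene and sample.

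The other genes of the cascade were read from 50 symbols sorted by role, of which 18 were tested and 12 had no count in any sample. The plasma components that the liver supplies were at or near 0: C6, C7, C8b, C9, Mbl1, Mbl2 and the regulator gene Cfi had no count. C4a had 1 to 32 counts per sample and a log2 fold change of 0.06 (edgeR, adjusted p = 0.953). C4b had at most 9 counts in a sample and was not tested. C4a and C4b are near-identical copies, so their split is uncertain. C8g, the gamma chain of C8, was the only tested gene of the terminal list, at 1.14 ± 0.14 CPM in the control samples and 0.574 ± 0.18 CPM in the stress samples (SD, n = 4 in each). Every stress sample of C8g was below every control sample, as for 9.87% of tested genes, but its log2 fold change of -0.99 (standard error 0.33) had an adjusted p of 0.0642 in edgeR's test.

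Of the 18 tested genes, 2 were called up, C5ar1 and Cd59b, and 0 down, where 1.69% of all tested genes were called up and 0.0171% down. DESeq2 called 4 of the list up (C1rl, C5ar1, Cd59a and Cd59b) and 0 down, beside 1.93% and 0.0753% of the genes it fitted. At an unadjusted p under 0.05 in edgeR's test, 9 of the 18 were higher and 4 lower, beside 2129 and 1524 of all 11718 tested genes. At an adjusted p below 0.05 without a fold change threshold 8 were higher and 2 lower, against 10.4% and 3.69% of all tested genes. Their median log2 fold change was 0.34, beside -0.02 for all tested genes, and on total counts alone -0.40 beside -0.82. Among the higher ones were the receptor genes C5ar1, C5ar2, Itgb2 and Cd93 and the regulator genes Cd59a, Cd59b and Clu, and the lower ones were Cr2 and Cd55.

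Among the receptors, C5ar1, the C5a receptor by which neutrophils and monocytes follow complement activation, rose (mean 8.13 ± 2.61 CPM in the control and 18.4 ± 2.62 CPM in the stress samples, SD, n = 4 in each). Its control samples lay between 4.75 and 10.3 CPM and its stress samples between 15.3 and 21.7 CPM. The log2 fold change was 1.19 (standard error 0.22, adjusted p = 0.00454 in edgeR's test), and C5ar1 stayed called in 3 of the 8 fits that left out 1 sample, with log2 fold changes from 0.99 to 1.34 and adjusted p-values up to 0.0274. It was not called without control replicates 2 or 3 or stress replicates 2, 3 or 4. On total counts alone the log2 fold change of C5ar1 was 0.50, where the median of all tested genes was -0.82. C5ar2, the second C5a receptor, had a log2 fold change of 1.12 (edgeR, adjusted p = 0.0418) with overlapping groups, its highest value in stress replicate 4 (9.76 CPM). Cd93, a surface protein of myeloid and endothelial cells once described as a C1q receptor, had a log2 fold change of 0.86 (edgeR, adjusted p = 0.0250), but only 0.13 on total counts alone, and in stress replicate 3 (7.29 CPM) it lay below every control sample. Itgb2, the common beta chain of complement receptors 3 and 4, rose by 0.43 (edgeR, adjusted p = 0.0444) on the TMM scale. On total counts alone its log2 fold change was -0.33, where the median of all tested genes was -0.82. The alpha chains Itgam and Itgax did not pass (log2 fold changes 0.66 and -0.41, edgeR's adjusted p-values 0.0536 and 0.167). Cr2, which encodes complement receptors 1 and 2 of B cells in the mouse, fell by 0.79 on the log2 scale (adjusted p = 0.00345, edgeR), from 50.5 ± 6.82 to 29.1 ± 5.40 CPM (SD, n = 4 per group), with every stress sample below every control sample.

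Among the regulators, Cd59b encodes a membrane inhibitor of the attack complex and rose (mean 1.46 ± 0.47 CPM in the control and 4.14 ± 0.92 CPM in the stress samples, SD, n = 4 in each). The log2 fold change was 1.51 (standard error 0.26, adjusted p = 0.00264 in edgeR's test), and it stayed called in 5 of 8 fits that left out 1 sample, but not without control replicate 2 or 3 or stress replicate 1 (adjusted p up to 0.0152). Its close paralog Cd59a rose by 1.05 (adjusted p = 0.0133), and reads could be split between them. Clu (clusterin, abundant in platelets) was the most abundant gene of the lists, and rose from 259.4 ± 61.1 to 514.3 ± 83.8 CPM (log2 fold change 0.99, adjusted p = 0.00589). Cd55, which speeds the decay of the convertases, fell by 0.69 on the log2 scale (edgeR, adjusted p = 0.00650), from 164.6 ± 14.1 to 101.6 ± 17.8 CPM (SD, n = 4 per group). These regulators thus went both ways, while Cr1l, the rodent convertase regulator Crry, differed by 0.04 on the log2 scale (standard error 0.11, edgeR's adjusted p 0.851).

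**Figure D2:**
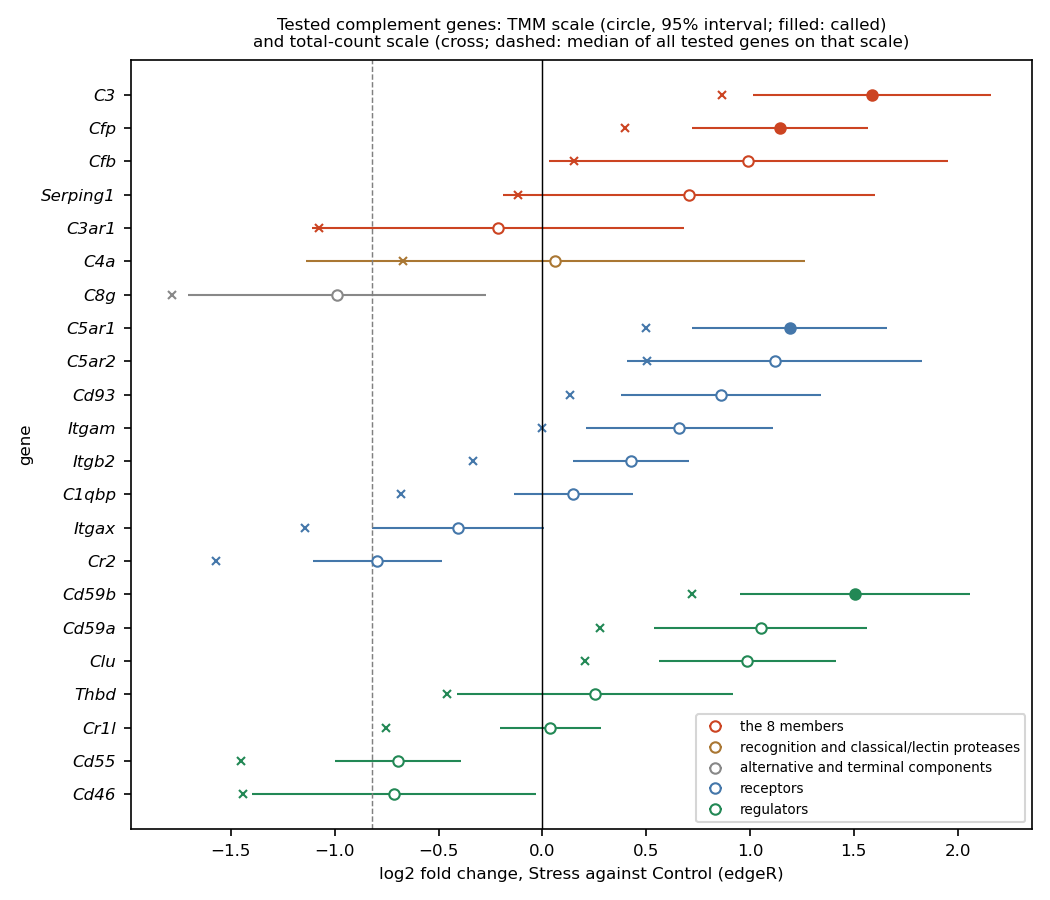
Log2 fold change of tested complement genes, stress against control, grouped by role, with circles and 95% intervals from edgeR on the TMM scale (filled where called) and crosses on total counts alone. C3, Cfp, C5ar1 and Cd59b are filled, and every cross lies to the left of its circle, with the dashed line at the median of all tested genes on that scale (-0.82).

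The summed markers of several lists, those of neutrophils, classical monocytes, platelets and dendritic cells among them, were higher in the stress samples, as C3 and Cfp were. The summed CPM of 12 neutrophil markers was 191.8 to 378.4 in the control samples and 589.1 to 872.6 in the stress samples. Of the 11 tested, 7 were called up, where 1.69% of all tested genes were. Ly6g (2 to 18 counts per control sample) rose by 2.77 and S100a8 by 1.49 on the log2 scale. The summed CPM of 9 classical monocyte markers was 364.6 to 490.3 in the control samples and 725.0 to 1262 in the stress samples. Most of that sum was Lyz2, with means of 272.8 CPM in the control and 679.1 CPM in the stress samples. Of the 9, 6 were called up, among them Ccr2 by 1.70, although its groups overlapped. The markers of that list not called, Ly6c2, Csf1r and Ms4a6c, had log2 fold changes of 0.83, 0.53 and 0.02. On total counts alone these were -0.01, -0.15 and -0.71, beside a median of -0.82 for all tested genes. Within the stress group C3 and Cfp were lowest in stress replicate 2. So were the neutrophil, classical monocyte, tissue macrophage, dendritic cell and B cell sums. C3 was highest in stress replicate 1, as were the classical monocyte, non-classical monocyte and tissue macrophage sums. Cfp was highest in stress replicate 4, as were the neutrophil and B cell sums. These matches thus included the B cell list, which was lower in the stress samples (558.7 to 733.3 CPM, control 788.6 to 985.5). All 6 platelet markers were higher at an adjusted p below 0.01 in edgeR's test, beside 4.60% of all tested genes. On the TMM scale each had every stress sample above every control sample, as 11.1% of all tested genes had, and 2 of the 6 passed the fold change threshold. Their summed CPM was 1121 to 1687 in the control samples and 2495 to 3246 in the stress samples. The summed CPM of 7 non-classical monocyte markers was 139.2 to 183.5 in the control samples and 108.2 to 153.5 in the stress samples. Of the 7, 0 were called and 3 were lower at an adjusted p below 0.05, beside 3.69% of all tested genes.

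Set against the classical monocyte markers of the same library, C3 held 14.6 to 18.6 counts per 1000 marker counts in the control samples and 15.2 to 25.98 in the stress samples, and Cfp 9.66 to 12.9 and 8.83 to 11.3. Per 1000 neutrophil marker counts, C3 held 20.4 to 41.2 in the control and 19.8 to 52.8 in the stress samples, and Cfp 13.4 to 24.0 and 10.9 to 19.3. Per 1000 platelet marker counts, C3 held 4.10 to 7.05 in the control and 4.06 to 13.1 in the stress samples, and Cfp 2.71 to 4.10 and 2.23 to 5.24. These ranges overlapped for both genes and all 3 lists, and the part of any of these cell types in the C3 and Cfp results was not tested. Against 2 lists with no marker called the ranges stayed apart. Per 1000 non-classical monocyte marker counts C3 held 43.1 to 53.6 in the control and 99.9 to 231.0 in the stress samples, and per 1000 B cell marker counts it was at 6.29 to 10.4 in the control and 20.8 to 47.0 in the stress samples. Spn held most of the non-classical monocyte sum, with means of 82.5 CPM in the control and 71.5 CPM in the stress samples. Values set against the classical and non-classical monocyte lists thus rest largely on Lyz2 and on Spn.

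**Figure D3:**
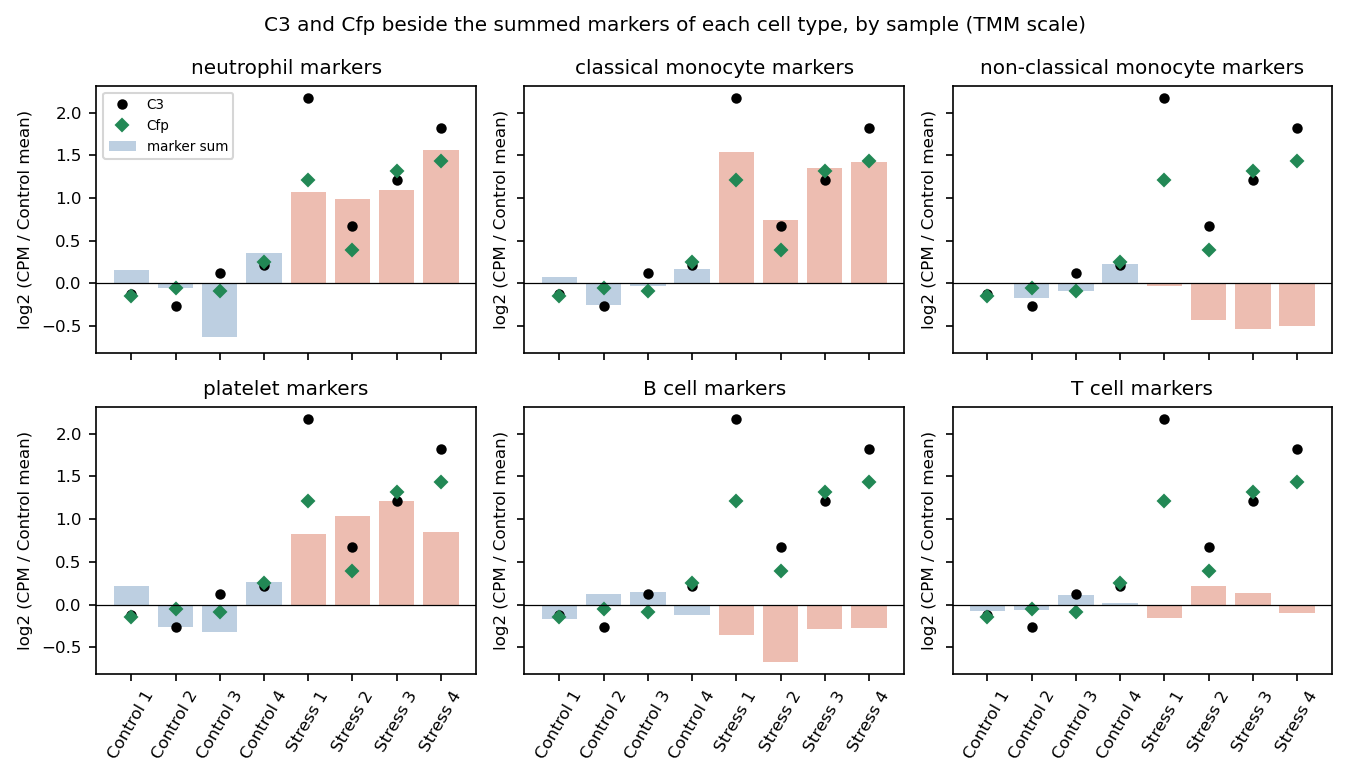
Log2 of CPM over the control mean for C3 (circles) and Cfp (diamonds) in each of the 8 samples, beside the summed CPM of 6 cell type marker lists (bars, blue for control and red for stress). In the neutrophil, classical monocyte and platelet panels the stress bars are above 0 with C3 and Cfp, and in the B cell and non-classical monocyte panels they are below 0.

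Markers of cells outside the blood that make complement were also read. The 8 hepatocyte markers had under 10 counts in every sample (summed CPM at most 0.189 in the control and 0.278 in the stress group), with Fga, Fgb and Fgg at 0, and the 5 adipocyte markers likewise (at most 0.173 and 0.607). Of 10 tissue macrophage markers, Marco and Clec4f were at 0 and 3 were tested, 0 of them called. The summed level was 5.94 to 7.33 CPM in the control and 5.94 to 14.2 CPM in the stress group. Adgre1 held most of that sum, with means of 5.16 CPM in the control and 7.55 CPM in the stress samples. The 8 endothelial and fibroblast markers summed to 4.58 to 8.04 CPM in the control and 9.73 to 11.8 CPM in the stress samples, without overlap. Of these markers 0 were called, and the median log2 fold change of the 6 tested was 0.59. On total counts alone that median was -0.14, beside -0.82 for all tested genes. The part of these cells in the C3 result was not tested. The 6 dendritic cell markers summed to 4.87 to 5.96 CPM in the control and 8.07 to 11.6 CPM in the stress samples, without overlap. Of them 1 was called up, where 1.69% of all tested genes were. At an adjusted p below 0.05 in edgeR's test 3 were higher, beside 10.4% of all tested genes. The part of dendritic cells in the C3 and Cfp results was not tested. Markers of T cells and NK cells (0 of 6 called in each) were also measured, as were 7 erythroid markers (0 called).

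**Figure D4:**
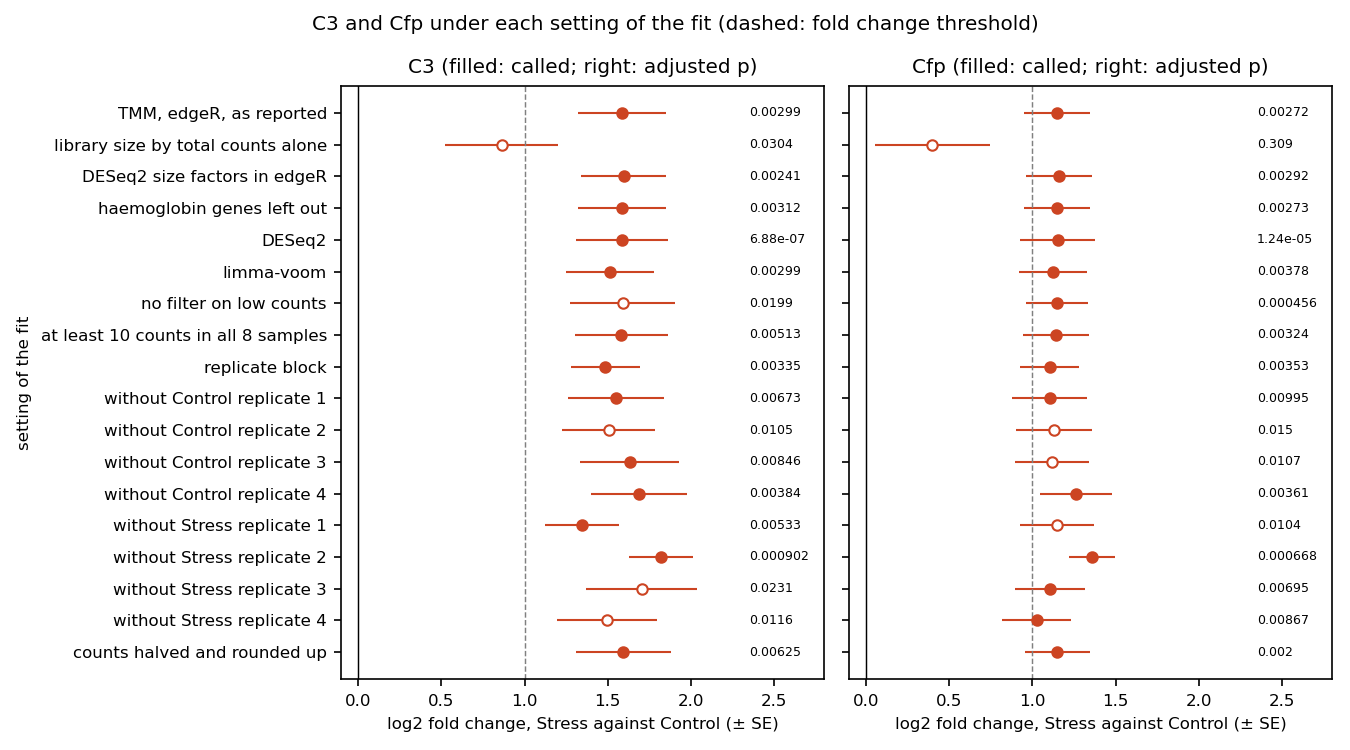
Log2 fold change (± standard error) of C3 and Cfp under each setting of the fit, filled where the gene was called, with the adjusted p at the right and the threshold of 1 dashed. All points lie above 0, and the point farthest left is that for total counts alone, 0.86 for C3 and 0.40 for Cfp.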

How the data were processed

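The authors deposited one table of raw read counts per gene symbol, with 1 column per sample and no normalization. The submitters' processing notes name HISAT2, featureCounts and the mm10 genome build; versions, annotation, strand setting and filters are not given in the sources used here. All 8 columns were matched to samples by name, and 5948 of 21878 genes had no count.

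The fit took the 11718 genes that reached 10 counts in 4 or more samples and was made in R 4.3.3 with edgeR 4.0.16 (TMM, robust quasi-likelihood test, Benjamini-Hochberg adjustment over all tested genes). Calls used the study's cut-offs, a log2 fold change of more than 1 in size with an adjusted p under 0.01; its own tool, DESeq2 1.42.0, was an alternative, as was limma-voom (limma 3.58.1). CPM uses the TMM-scaled library size, and ratios used counts plus 0.5. The fit was tested on simulated data. Positions and exon lengths come from GENCODE M21 (GRCm38), which held all 8 genes, and promoters from RefSeq.

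The members, the lists and the tests were chosen with earlier results of these data known. Named were every member, pathway genes with an adjusted p below 0.05, a log2 fold change above 1 in size or over 100 CPM, the 3 genes most like each tested member, the first 2 genes of a marker list and markers at 0; other genes were named after their values were seen. The result for 1 of these pathway genes is not reported here. No 2 samples of a group agreed within sampling noise (chi-square per degree of freedom at least 18.7).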

Additional observations from a re-analysis of the deposited data

How the results depend on the processing

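C3 and Cfp kept a log2 fold change above 0 in all fits run. Of the 8 members, 0 were called up on total counts alone, 1 without the count filter (Cfp; C3 had an adjusted p of 0.0199 in edgeR's test) and 0 to 2 with 1 sample left out in turn. The extremes were 0 without control replicate 2, and 1 without control replicate 3 or without stress replicate 1, 3 or 4. Serping1 turned from 0.71 to -0.12 on total counts alone, where the median of all tested genes was -0.82. Of the pathway list, 0 genes were called up and 4 down (C8g, Cd46, Cd55 and Cr2) on total counts alone, 4 up with DESeq2, 4 up at an adjusted p below 0.05, 2 down without the fold change threshold, and 0 to 4 up with 1 sample left out (0 without control replicate 2 or 3, 4 without control replicate 4).

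Over all genes 198 were called up and 2 down, against 14 and 729 on total counts alone, 307 and 12 with DESeq2, 337 and 20 at an adjusted p below 0.05, and 539 and 38 without the fold change threshold. Leaving out 1 sample gave 76 (without control replicate 2) to 340 (without control replicate 4) up and 1 to 8 down; 4 were down without the count filter and 4 with counts halved and rounded up, a setting chosen after seeing the data. With the replicate block 189 were up and 1 down, and both C3 (edgeR, adjusted p = 0.00335) and Cfp (0.00353) stayed called. Deviations of same-numbered samples correlated at 0.06, 0.0004, -0.04 and -0.16, so no shared deviation by number was seen. Whether the numbers pair the samples cannot be told from these values or from the labels. No single ratio could pass after adjustment in any setting (smallest p 0.0286, and 0.125 with the block). With the filter on all 8 samples, Cfb and C3ar1 could not be fitted. The C1q chains missed the count filter, and Cfb, Serping1 and C3ar1, with at most 74 counts in a sample, had wide intervals.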

Other observations

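C1rl, a protease gene related to C1r, is one of the 50 pathway genes but missed the count filter, and it is described here because its values were seen. It had 2, 4, 3 and 4 counts in control replicates 1 to 4 and 29, 26, 0 and 18 in stress replicates 1 to 4, so 3 stress samples were high and stress replicate 3 was at 0. Fitted without the filter, its log2 fold change was 3.40 (standard error 0.77, edgeR, adjusted p = 0.00577), and DESeq2 gave 3.43 (adjusted p = 0.000622). The groups overlapped through the stress sample at 0.

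The genes whose levels ran most closely with a member were found by the SD of their log2 ratio to it over the 8 samples, a description in which 0 would be a fixed ratio. For C3, whose own log2 level had an SD of 0.91, they were Cd177 (SD of the ratio 0.18), a surface protein of neutrophils, the chemokine gene Ccl9 (0.19) and App (0.23), the amyloid precursor gene. For Cfp (own SD 0.67) they were Fam110b (0.14), Plin2 (0.17), which coats lipid droplets, and Abcd2 (0.19), a peroxisomal fatty acid transporter. For Serping1 (own SD 0.49) they were Ptdss2 (0.14), Cgrrf1 (0.17) and Uqcrq (0.18). All these genes were picked for the smallest SD among the tested genes, and Serping1 held only 10 to 26 counts per sample. Whether such picking alone gives SDs this small was not tested. The closest genes of Cfb and C3ar1 were farther away, at 0.27 or more (LOC108167886, Ifit1bl2 and Bcl2a1a for Cfb, and Gm3325, Rpa3 and Prkrip1 for C3ar1).

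Each of the 16 sets of 4 values (8 genes in 2 groups) was examined for a sample far from the others, and 0 of them passed Dixon's critical value at the 95% level.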
